A study of Mus musculus with 6 samples.

Results

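The genes described here make cholesterol, control its synthesis, and take up, move or store it. They were chosen by symbol from a list of 32, made of 18 synthesis enzymes, 5 regulators and 9 genes of uptake and trafficking. Of these, 31 were found among the 21604 symbols of the count table, and all 31 passed the filter on low counts that left 13014 genes for testing. The remaining member, Ch25h, which makes 25-hydroxycholesterol, was not analysed here.

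RNA was sequenced from RAW 264.7, a mouse macrophage-like tumour line, in 6 libraries, and the labels give every sample a wild type genotype and name bone marrow macrophages as its cell type. The LPS group of 3 samples received lipopolysaccharide (LPS), an outer membrane lipid of bacteria that macrophages sense, at 100 ng/mL during 24 h. The PE-CUR group of 3 samples received that LPS dose and 2 mg/mL PE-CUR during 24 h, so PE-CUR below always stands for LPS plus PE-CUR. The series title speaks of Pickering emulsions, droplets stabilised by solid particles, loaded with the plant polyphenol curcumin, and its design text asks about inflammation and osteoclasts. All cells had LPS, and no untreated cells, empty emulsion or free curcumin are named in the labels, so each difference below is one between PE-CUR and LPS. Nothing in the labels ties the replicates to separate cultures, so the p-values speak only of spread among these samples, and that spread may be technical.

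Cells build cholesterol from acetyl-CoA, first along the mevalonate arm to farnesyl diphosphate and then along the sterol arm through squalene and lanosterol. The membrane-bound factors SREBP-1 and SREBP-2 switch on the genes of synthesis and uptake when sterols in the endoplasmic reticulum are low, the escort protein SCAP carries them to the Golgi, and the INSIG proteins hold SCAP back when sterols are high. The nuclear receptors LXR respond to oxysterols and switch on export and related genes. Macrophages take up much of their cholesterol with lipoproteins and debris, release it in lysosomes through NPC2 and NPC1, and store the excess as esters in droplets.

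Levels below are CPM, counts over library size corrected by TMM factors, given in the order of replicates 1, 2 and 3 of each group. Fold changes divide PE-CUR by LPS, and a gene is said to have risen or fallen where the Benjamini-Hochberg adjusted p of edgeR's quasi-likelihood test, over all 13014 genes and 3 against 3 libraries, was under 0.05. Levels of different genes are compared as the deposited FPKM, which corrects for gene length. The exception is the pair of overlapping genes Ctsb and Fdft1, for which read counts are set side by side. The lengths implied by the FPKM differ from the annotated exonic bases for some genes. Fdft1, for example, has 10420 bases against 4227 and Msmo1 2328 bases against 6144. Orders of genes and sums by FPKM can therefore depend on the lengths used. Total counts were 28530750 to 35276533 per library, so that 1 CPM stands for about 30 counts, and libraries correlated at 0.985 or more within and at 0.955 or less between the groups (Pearson correlation of log2 CPM across genes). Marker sums, over the unscaled library total, were 10928 to 11532 CPM in LPS and 8979 to 10047 CPM with PE-CUR for macrophages, with 2 of 10 higher and 4 lower. The 60.0% called are near the 63.4% of all genes tested. Most of that sum was Lyz2, which fell from a TMM-scaled mean of 6420.8 to 4835.5 CPM, while Csf1r and Cd14 were the 2 that rose. All 12 cell cycle markers rose, and their sum was 735 to 958 CPM in LPS and 2340.4 to 2902 CPM with PE-CUR. Hepatocyte markers summed to 52.5 to 72.6 CPM in LPS, to 0.186 and 0.0568 CPM in PE-CUR replicates 1 and 2, and to 86.7 CPM in replicate 3. Of those 10 markers 0 passed with edgeR, at an adjusted or unadjusted p, 0 with DESeq2 and 1 with limma-voom. Fibroblast markers reached 12.1 CPM in PE-CUR replicate 2 and at most 2.35 CPM elsewhere, while T and B cell markers stayed at or under 0.369 CPM, epithelial markers at or under 3.13 CPM and erythroid markers at or under 2.16 CPM. In PE-CUR replicate 2 the collagen genes Col1a1, Col1a2 and Col3a1 had 180, 187 and 57 counts, but Dcn had 0 and Pdgfra 2. Of the markers tested, 2 of 3 epithelial ones rose (Krt8 and Krt18; 1 with DESeq2 and 1 with limma-voom) and 1 of 2 fibroblast ones fell (Pdgfra). No listed marker with a row was at 0 in every library. The part of proliferation and of transcripts from other tissues in the results was not tested, and fewer cells of a kind cannot be told apart from less RNA per cell in bulk samples.

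Among the 31 members, 6 rose, 16 fell and 9 did not pass with PE-CUR. The 22 members called are 71.0%, beside 63.4% of all genes tested (30.8% higher and 32.7% lower), so the share called is near the background; 19.4% rose and 51.6% fell. The groups did not overlap in 22 members, 6 with PE-CUR higher and 16 with PE-CUR lower, where the shares over all genes tested were 69.0%, 33.3% and 35.7%. At least 1.5-fold changes were called for 9 members, 2 higher and 7 lower, beside 34.2% of all genes tested (15.2% higher and 19.1% lower). The falls lay in the sterol arm (8), in the mevalonate arm (Hmgcs1 and Pmvk), in both Insig genes and in lysosomal release, esterification and lipid transfer (Npc1, Npc2, Soat1 and Pltp). The rises were those of the mevalonate enzymes Acat2 and Mvk, of Srebf1, of the receptor gene Lrp1, of the ubiquitin ligase gene Mylip and of the sterol carrier gene Stard4. All 31 loci are protein coding in the annotation. The median log2 fold change of the members was -0.20, beside -0.031 for all genes tested. Without PE-CUR replicate 3, the library of that group with hepatocyte transcripts, 20 of the 22 calls remained, and Hmgcs1 and Lss were lost. Every LPS library held hepatocyte transcripts too (marker sums of 52.5 to 72.6 CPM). In that fit their presence therefore coincides with the group, and the 2 cannot be told apart. Without PE-CUR replicate 2, the library with the highest counts of Col1a1, Col1a2 and Col3a1, 18 calls remained, and Hmgcs1, Sqle, Lss and Npc2 were lost.

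**Figure D1:**
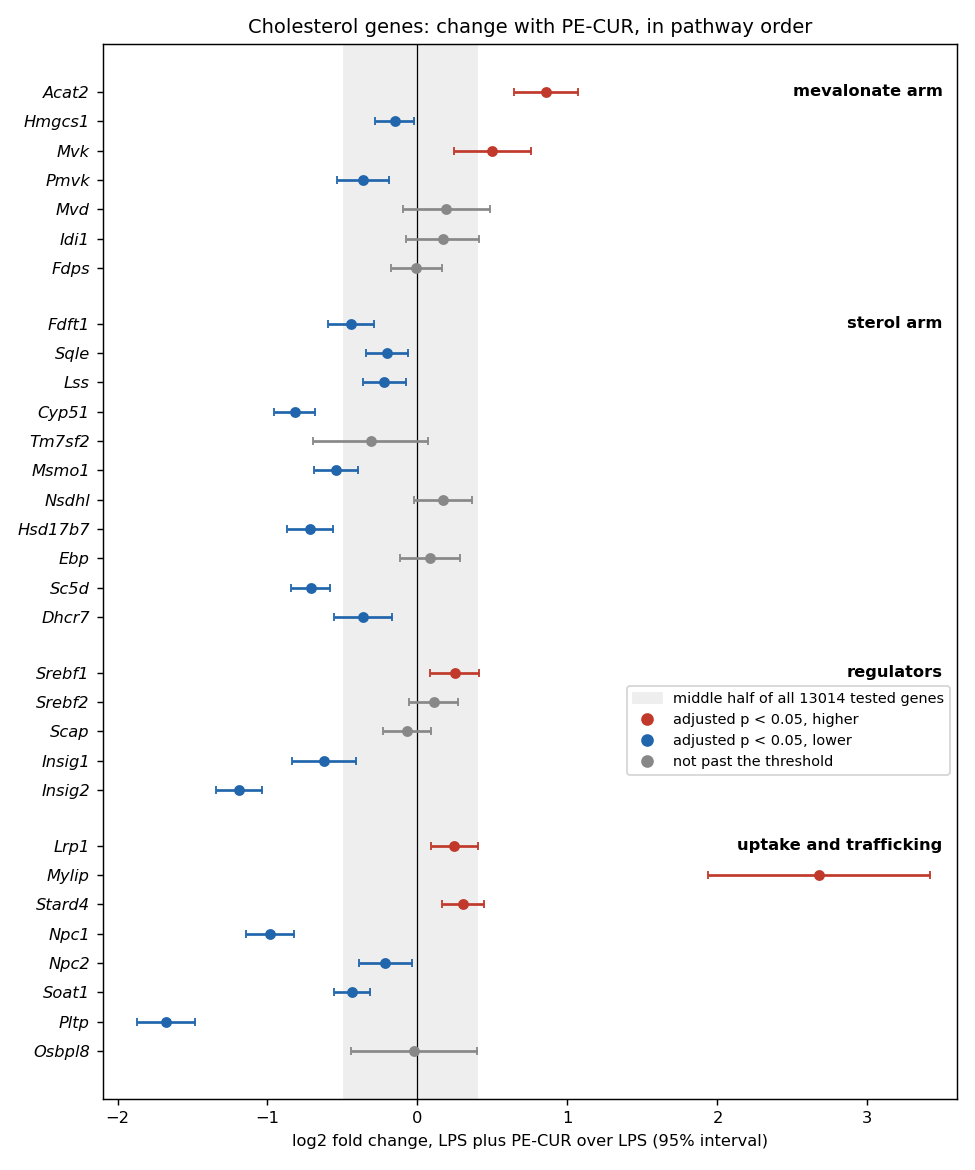
Log2 fold change of PE-CUR over LPS (horizontal axis) for the 31 members in pathway order, with 95% intervals from the quasi-likelihood fit, coloured by whether the adjusted p was under 0.05; the grey band spans the quartiles of all tested genes (-0.49 to 0.40). The sterol arm holds 8 falls and 0 rises, and Mylip and Pltp stand farthest from 0.

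In the mevalonate arm, 2 of 7 enzymes rose, 2 fell and 3 did not pass; the median log2 fold change was 0.17. The share called, 57.1% (28.6% in each direction), is near that of all genes tested (63.4%; 30.8% higher and 32.7% lower). Acat2, the cytosolic thiolase that joins acetyl-CoA units at the head of the pathway (chromosome 17, 12943042 to 12960725, build mm10), had 23.1, 28.2 and 22.8 CPM in LPS and 44.8, 41.3 and 47.9 CPM with PE-CUR. Every treated library was above every LPS library, and Acat2 rose 1.81-fold (edgeR log2 fold change 0.85 with SE 0.097, adjusted p = 1.90e-05). The near-identical neighbour Acat3 had 14 to 34 counts per library in either group, and how reads shared by the pair were counted is not given in the sources used here. Mvk, which phosphorylates mevalonate (chromosome 5, 114444264 to 114460591), had 9.09, 9.63 and 8.62 CPM in LPS and 11.8, 12.4 and 14.5 CPM with PE-CUR. Its groups did not overlap either, and Mvk rose 1.41-fold (edgeR log2 fold change 0.50 with SE 0.12, adjusted p = 0.00305).

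The next kinase went the other way. Pmvk, which adds the following phosphate (chromosome 3, 89454541 to 89469014), had 25.6, 25.7 and 24.6 CPM in LPS and 20.9, 19.3 and 18.7 CPM with PE-CUR. All treated libraries were lower, and Pmvk fell 1.29-fold (edgeR log2 fold change -0.36 with SE 0.078, adjusted p = 0.00187). Hmgcs1, the synthase of HMG-CoA (chromosome 13, 119690351 to 119708260), had 98.0, 105 and 97.5 CPM in LPS and 87.4, 93.4 and 89.3 CPM with PE-CUR. The groups lay apart by a small gap (edgeR log2 fold change -0.15 with SE 0.059, adjusted p = 0.0430), and the call ended without any of the 6 libraries in turn, at log2 fold changes of -0.14 to -0.078 (edgeR adjusted p from 0.115 to 0.333). With all libraries kept, the Hmgcs1 call ended with DESeq2 (adjusted p = 0.103). In edgeR it also ended with median-ratio factors (adjusted p = 0.0737), without a filter (0.327) and with the replicate number as a block (0.0785). Removal of the 10 most abundant genes ended it as well (edgeR adjusted p = 0.1105).

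The other enzymes of this arm had overlapping groups. Mvd, which decarboxylates mevalonate diphosphate, had 25.2, 31.3 and 24.1 CPM in LPS and 35.8, 27.2 and 29.0 CPM with PE-CUR (edgeR log2 fold change 0.19 with SE 0.13, adjusted p = 0.220). It passed as higher only without LPS replicate 2 (log2 fold change 0.36, edgeR adjusted p = 0.0315) and in the fit without a filter. Idi1, the isomerase of the isoprene units, had 29.5, 25.4 and 23.5 CPM in LPS and 25.6, 32.6 and 29.8 CPM with PE-CUR (edgeR log2 fold change 0.17 with SE 0.11, adjusted p = 0.203). A pass as higher was reached without LPS replicate 1 (0.30, adjusted p = 0.0443), without PE-CUR replicate 1 (0.28, adjusted p = 0.0245) and without a filter. Fdps, which makes farnesyl diphosphate, had 164, 188 and 154 CPM in LPS and 161, 164 and 178 CPM with PE-CUR (edgeR log2 fold change -0.008 with SE 0.077, adjusted p = 0.932). The 95% interval of its log2 fold change was -0.18 to 0.16, and its sign turned in 8 of 17 alternative fits. Of its exonic bases, 26.7% overlap the gene model Gm43738 on the same strand.

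In the sterol arm, 8 of 11 enzymes fell, 0 rose and 3 did not pass (edgeR, 32.7% of all genes fell and 30.8% rose); the median log2 fold change was -0.36. The count of rises was also 0 at an unadjusted p under 0.05, with DESeq2 and with limma-voom, and was 1, Nsdhl, without LPS replicate 2 and in the fit without a filter. The count of falls was 6 in the fit without a filter and 6 to 7 with a library left out. Cyp51, the lanosterol demethylase (chromosome 5, 4080674 to 4104697), had 143, 155 and 141 CPM in LPS and 79.9, 85.7 and 83.2 CPM with PE-CUR. The lowest LPS library was far above the highest treated library, and Cyp51 fell 1.76-fold (edgeR log2 fold change -0.82 with SE 0.061, adjusted p = 9.46e-07). Hsd17b7, the ketone reductase of the C4 demethylation steps (chromosome 1, 169949535 to 169969242), had 87.6, 93.7 and 85.0 CPM in LPS and 51.3, 52.9 and 58.0 CPM with PE-CUR. It fell 1.64-fold with groups well apart (edgeR log2 fold change -0.71 with SE 0.069, adjusted p = 6.11e-06).

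Sc5d, the desaturase near the end of the pathway (chromosome 9, 42251592 to 42264300), had 133, 139.9 and 133 CPM in LPS and 78.6, 84.7 and 85.1 CPM with PE-CUR. It fell 1.64-fold, with replicates that differed by little (edgeR log2 fold change -0.71 with SE 0.059, adjusted p = 2.02e-06). Msmo1, the oxidase that starts C4 demethylation (chromosome 8, 64718123 to 64733578), had 217, 240.1 and 212 CPM in LPS and 145, 153 and 160.2 CPM with PE-CUR. It fell 1.46-fold and lay apart in all libraries (edgeR log2 fold change -0.55 with SE 0.066, adjusted p = 3.16e-05). Fdft1, squalene synthase and the first enzyme committed to sterols (chromosome 14, 63145150 to 63181687), had 70.8, 78.2 and 72.4 CPM in LPS and 58.3, 51.9 and 52.8 CPM with PE-CUR. It fell 1.36-fold (edgeR log2 fold change -0.44 with SE 0.070, adjusted p = 0.000233), and 18.3% of its annotated exonic bases overlap Ctsb on the opposite strand. Ctsb, a lysosomal protease gene, had 100474 to 192723 counts per library against 1462 to 2619 for Fdft1, a log2 fold change of -0.43, and did not pass (edgeR adjusted p = 0.0660). The strand setting of the counting is not given in the sources used here, and without it reads from such overlaps cannot be assigned to either gene.

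Dhcr7, the reductase of the last step (chromosome 7, 143823167 to 143848410), had 59.4, 62.8 and 55.8 CPM in LPS and 52.5, 42.7 and 43.2 CPM with PE-CUR. It fell 1.29-fold, and its treated replicate 1 was nearer to the LPS group than the other treated libraries (edgeR log2 fold change -0.36 with SE 0.088, adjusted p = 0.00403). Smaller falls were found for the enzymes that oxidise and close squalene. Sqle, squalene epoxidase, had 129.7, 140.5 and 129.6 CPM in LPS and 114, 111 and 123 CPM with PE-CUR (edgeR log2 fold change -0.20 with SE 0.063, adjusted p = 0.0154). Lss, lanosterol synthase, had 86.6, 94.1 and 82.1 CPM in LPS and 77.1, 73.4 and 75.0 CPM with PE-CUR (edgeR log2 fold change -0.22 with SE 0.066, adjusted p = 0.0124). In both, the groups did not overlap, but the gap between them was smaller than the range of the LPS libraries. The Sqle call ended without any single library other than PE-CUR replicate 3, at log2 fold changes from -0.19 to -0.12 (edgeR adjusted p from 0.0541 to 0.148). The Lss call ended without LPS replicate 1 or 2 or PE-CUR replicate 2 or 3, at log2 fold changes from -0.20 to -0.13 (edgeR adjusted p from 0.0557 to 0.137). The calls of Sqle and Lss also ended in the fit without a filter (edgeR adjusted p = 0.0965 and 0.0695).

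The remaining 3 enzymes did not pass. Tm7sf2, a C14 sterol reductase of low level, had 4.08, 3.99 and 3.48 CPM in LPS and 3.45, 2.80 and 3.07 CPM with PE-CUR (edgeR log2 fold change -0.31 with SE 0.17, adjusted p = 0.142). Its groups did not overlap, and it passed as lower on log2 FPKM of the same genes (limma adjusted p 0.0338 with a pseudocount of 1 and 0.0365 with 0.1). Vps51, which overlaps 12.1% of its exonic bases on the same strand, rose (edgeR log2 fold change 0.77). Nsdhl, the decarboxylase of C4 demethylation, had 30.3, 37.6 and 31.6 CPM in LPS and 37.3, 36.0 and 38.8 CPM with PE-CUR (edgeR log2 fold change 0.17 with SE 0.089, adjusted p = 0.116). Without LPS replicate 2, the highest LPS library, Nsdhl passed as higher (log2 fold change 0.31, edgeR adjusted p = 0.00837). Ebp, the sterol isomerase, had 18.7, 21.0 and 22.4 CPM in LPS and 21.4, 21.0 and 23.4 CPM with PE-CUR (log2 fold change 0.085, 95% interval -0.12 to 0.28, edgeR adjusted p = 0.439). Within C4 demethylation, then, Msmo1 and Hsd17b7 fell and Nsdhl did not pass, with 95% intervals of the log2 fold change of -0.69 to -0.40, -0.87 to -0.56 and -0.025 to 0.37. The differences between these genes were not tested.

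**Figure D2:**
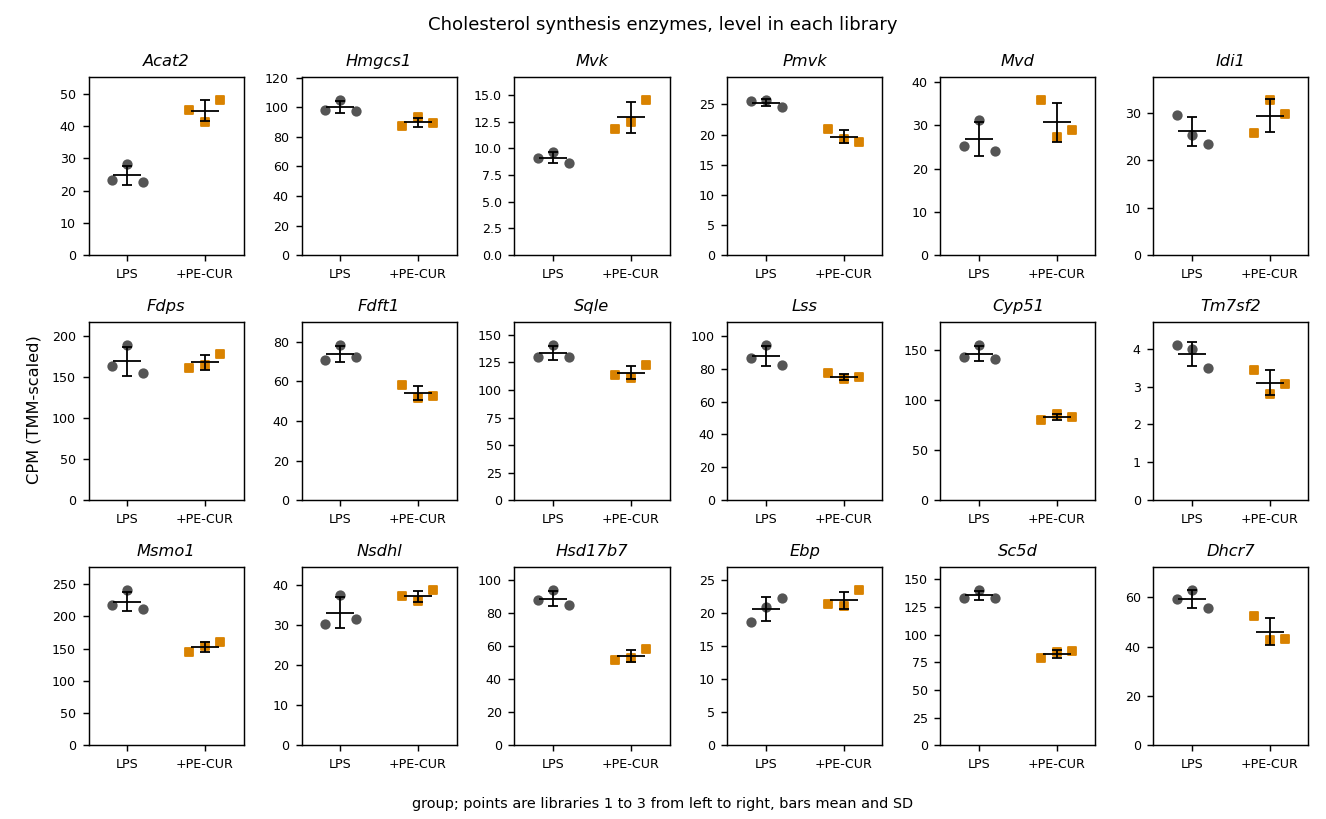
Level of the 18 synthesis enzymes in each library (vertical axis, TMM-scaled CPM from 0; circles LPS, squares PE-CUR; bars mean and SD of 3 libraries). Acat2 and Mvk are higher in every treated library, and Cyp51, Hsd17b7, Sc5d and Msmo1 lower.

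Sums of FPKM over each arm are given as a description, with no test. The 7 mevalonate enzymes summed to 187, 209.9 and 178 FPKM in LPS and to 196, 187 and 201 FPKM with PE-CUR, ranges that overlapped. The 11 sterol enzymes summed to 280.2, 306 and 280.0 FPKM in LPS and to 208, 200.1 and 212 FPKM with PE-CUR, 0.716 times the LPS mean, and these groups did not overlap. Msmo1 and Sqle had the highest FPKM of the sterol arm in both groups, and Fdps of the mevalonate arm.

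Promoter sequence was examined because 8 of the 11 sterol enzymes fell and because SREBP is known to act beside the factors NF-Y, which binds CCAAT boxes, and SP1, which binds GC boxes. RefSeq windows of 300 bases around annotated starts (GRCm38.p6, the assembly of mm10) matched 27 of the 32 members, 15 of them synthesis enzymes. Fdps, Fdft1, Sqle, Stard4 and Npc1 had no entry. The letters searched, on both strands and with overlaps allowed, were those of a sterol regulatory element (SRE), TCACNCCAC, of the box that NF-Y binds, CCAAT, and of the box that SP1 binds, GGGCGG. An LXR element of the DR4 type was searched as well, with the letters AGGTCA repeated after a gap of 4 bases. CCAAT was found in a window of 14 of the 15 synthesis enzymes (93.3%), beside 43.0% of the 10343 tested genes with a window and 37.4% of all 32817 windows. GGGCGG was found in 14 of the 15 (93.3%), beside 65.8% of tested genes and 35.6% of all windows. The SRE letters were found in 1 of the 15 enzymes, Hmgcs1, beside 1.40% of tested genes and 1.24% of all windows, and the LXR element in none of the 27 members, beside 0 of the 10343 tested genes and 0.0152% of all windows, so that its absence says nothing of the members. The search allowed no mismatch and covered only these windows, so an enzyme without the SRE letters may still have a sterol regulatory element. These matches describe letters in the windows and say nothing of binding.

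The 250 bases before a RefSeq transcript start of 4 enzymes are shown for the genes at the ends of the pattern. Acat2 (chr17:12960726-12960975, minus strand) had the largest rise among the enzymes and was the 1 without CCAAT, Mvk (chr5:114444019-114444268, plus strand) rose and had the most CCAAT boxes of the 15, Cyp51 (chr5:4104698-4104947, minus strand) had the largest fall among the enzymes, and Hmgcs1 (chr13:119690101-119690350, plus strand) held the SRE letters. Capitals mark CCAAT or its reverse complement, and in Hmgcs1 also the 9 bases of the SRE match, which begins 137 bases before the start.
Acat2: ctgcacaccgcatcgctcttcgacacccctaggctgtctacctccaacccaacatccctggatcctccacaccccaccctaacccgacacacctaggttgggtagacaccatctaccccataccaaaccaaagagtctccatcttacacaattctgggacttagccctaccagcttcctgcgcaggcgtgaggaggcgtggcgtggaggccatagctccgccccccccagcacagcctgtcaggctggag
Mvk: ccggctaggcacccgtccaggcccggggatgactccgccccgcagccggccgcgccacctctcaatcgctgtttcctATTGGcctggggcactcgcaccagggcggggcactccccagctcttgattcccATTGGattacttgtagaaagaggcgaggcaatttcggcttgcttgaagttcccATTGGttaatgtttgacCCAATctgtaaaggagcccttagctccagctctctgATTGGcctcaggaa
Cyp51: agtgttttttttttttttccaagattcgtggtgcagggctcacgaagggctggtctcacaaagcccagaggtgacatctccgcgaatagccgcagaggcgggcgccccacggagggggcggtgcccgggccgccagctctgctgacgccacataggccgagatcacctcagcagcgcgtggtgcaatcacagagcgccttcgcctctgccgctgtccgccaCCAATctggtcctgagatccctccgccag
Hmgcs1: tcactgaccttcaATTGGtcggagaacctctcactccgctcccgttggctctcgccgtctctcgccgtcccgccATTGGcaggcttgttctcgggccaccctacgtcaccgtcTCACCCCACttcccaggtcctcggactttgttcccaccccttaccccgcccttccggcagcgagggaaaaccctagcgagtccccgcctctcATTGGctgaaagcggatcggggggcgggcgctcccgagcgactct
The printed stretches hold 0, 5, 1 and 3 CCAAT boxes in Acat2, Mvk, Cyp51 and Hmgcs1. Both a gene that rose and genes that fell thus held them, and their number did not order these 4 genes by their change.

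Of the 5 regulators, 1 rose, 2 fell and 2 did not pass; the 60.0% called are near the 63.4% of all genes tested (30.8% higher and 32.7% lower). Insig2, which retains SCAP in the endoplasmic reticulum (chromosome 1, 121304353 to 121332662), had 58.1, 60.6 and 62.6 CPM in LPS and 27.9, 26.0 and 25.4 CPM with PE-CUR. It fell 2.28-fold, with no treated library above 27.9 CPM and no LPS library below 58.1 CPM (edgeR log2 fold change -1.19 with SE 0.070, adjusted p = 2.17e-07). Insig1, the related retention protein whose gene is itself a target of SREBP (chromosome 5, 28071412 to 28078662), had 88.0, 106 and 86.2 CPM in LPS and 54.9, 61.9 and 65.7 CPM with PE-CUR. It fell 1.54-fold (edgeR log2 fold change -0.62 with SE 0.096, adjusted p = 0.000259), and LPS replicate 2 was above the other LPS libraries. By FPKM, Insig1 was above Insig2 in every library, at 36.0 ± 4.14 FPKM in LPS and 22.5 ± 1.61 FPKM with PE-CUR (mean ± SD, n = 3) against 8.78 ± 0.361 FPKM in LPS and 3.70 ± 0.268 FPKM with PE-CUR.

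Of the genes of SREBP and SCAP only Srebf1 passed. Srebf1, which encodes SREBP-1 (chromosome 11, 60199084 to 60224186), had 60.8, 71.8 and 65.6 CPM in LPS and 82.2, 75.2 and 77.9 CPM with PE-CUR. It rose 1.19-fold (edgeR log2 fold change 0.25 with SE 0.073, adjusted p = 0.0123), but the call ended with library totals alone (edgeR adjusted p = 0.05002) and with limma on log2 FPKM in each of 3 settings (adjusted p 0.0675 to 0.130). Srebf2, which encodes SREBP-2, had 197, 207 and 191 CPM in LPS and 237, 195 and 209.5 CPM with PE-CUR (edgeR log2 fold change 0.11 with SE 0.074, adjusted p = 0.222). A pass as higher was reached without PE-CUR replicate 2 (log2 fold change 0.22, edgeR adjusted p = 0.0272) and without a filter. Scap had 63.2, 67.4 and 61.7 CPM in LPS and 66.7, 58.0 and 58.5 CPM with PE-CUR, with a 95% interval of the log2 fold change of -0.23 to 0.092 (edgeR adjusted p = 0.433). Both of the latter genes had overlapping groups.

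Of the 8 uptake and trafficking genes tested, 3 rose, 4 fell and 1 did not pass, so that 87.5% were called, beside 63.4% called, 30.8% higher and 32.7% lower among all genes tested. Mylip, a ubiquitin ligase of lipoprotein receptors and a known LXR target (chromosome 13, 45389742 to 45411940), had the largest change of all members, in either direction. Its counts were 28, 21 and 52 in LPS and 270.0, 210.0 and 123 with PE-CUR, or 0.860, 0.640 and 1.44 CPM in LPS and 8.31, 6.18 and 4.44 CPM with PE-CUR. The treated libraries were all higher, though they differed among themselves, and Mylip rose 6.39-fold from a low level (edgeR log2 fold change 2.68 with SE 0.33, adjusted p = 7.50e-05). On the log2(FPKM + 1) scale, which understates changes of low genes, its log2 fold change was 1.05.

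Stard4, which carries sterols between membranes in the cytosol, had 53.4, 52.2 and 49.4 CPM in LPS and 61.4, 63.9 and 65.8 CPM with PE-CUR. It rose 1.23-fold without overlap (edgeR log2 fold change 0.30 with SE 0.063, adjusted p = 0.00159). Lrp1, a large endocytic receptor for lipoprotein remnants and many other ligands (chromosome 10, 127538157 to 127621148), had 1104, 1174 and 1068 CPM in LPS and 1265, 1252 and 1453 CPM with PE-CUR. It rose 1.19-fold (edgeR log2 fold change 0.25 with SE 0.070, adjusted p = 0.0100), with PE-CUR replicate 3 the highest, and the call ended only on log2(FPKM + 1) without a filter (limma adjusted p = 0.0856).

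Pltp, the phospholipid transfer protein (chromosome 2, 164839518 to 164857708), had 32.7, 30.3 and 34.3 CPM in LPS and 10.4, 9.51 and 10.6 CPM with PE-CUR. Its level in the treated libraries was close to a common value, and Pltp fell 3.19-fold, the largest fall of the members (edgeR log2 fold change -1.67 with SE 0.087, adjusted p = 1.25e-07). Of its exonic bases, 19.3% overlap Ctsa on the opposite strand, a lysosomal protease gene whose log2 fold change was -0.41 (edgeR adjusted p = 2.18e-04). Npc1, the lysosomal membrane protein that exports cholesterol, had 254, 266 and 274 CPM in LPS and 126, 128 and 149 CPM with PE-CUR. It fell 1.98-fold with groups far apart (edgeR log2 fold change -0.98 with SE 0.071, adjusted p = 7.93e-07).

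Npc2, the soluble protein that hands cholesterol to NPC1 inside the lysosome (chromosome 12, 84754559 to 84773112), had 382, 452 and 425 CPM in LPS and 331, 358 and 396 CPM with PE-CUR. Its groups overlapped, since PE-CUR replicate 3 was above LPS replicate 1, and the fall was small (edgeR log2 fold change -0.22 with SE 0.080, adjusted p = 0.0360). The Npc2 call ended without LPS replicate 2 or 3 or PE-CUR replicate 1 or 2, at log2 fold changes from -0.17 to -0.12 (edgeR adjusted p from 0.149 to 0.255). It also ended with median-ratio factors (0.0545), with DESeq2 (0.0503) and after removal of the 10 most abundant genes (0.0692). The 95% intervals of the log2 fold changes of Npc1 (-1.14 to -0.82) and Npc2 (-0.39 to -0.038) did not meet, though the difference between these partners was not tested. Soat1, which esterifies cholesterol for storage (chromosome 1, 156428108 to 156474328), had 375, 397 and 395 CPM in LPS and 278, 285 and 299.9 CPM with PE-CUR. It fell 1.35-fold without overlap (edgeR log2 fold change -0.44 with SE 0.055, adjusted p = 4.34e-05). Osbpl8, a lipid exchanger between the endoplasmic reticulum and the plasma membrane, had 452, 412 and 434 CPM in LPS and 319.9, 496 and 462 CPM with PE-CUR (edgeR log2 fold change -0.024 with SE 0.17, adjusted p = 0.912). PE-CUR replicate 1 was the lowest library of all, and without it Osbpl8 passed as higher (log2 fold change 0.17, edgeR adjusted p = 0.0326).

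**Figure D3:**
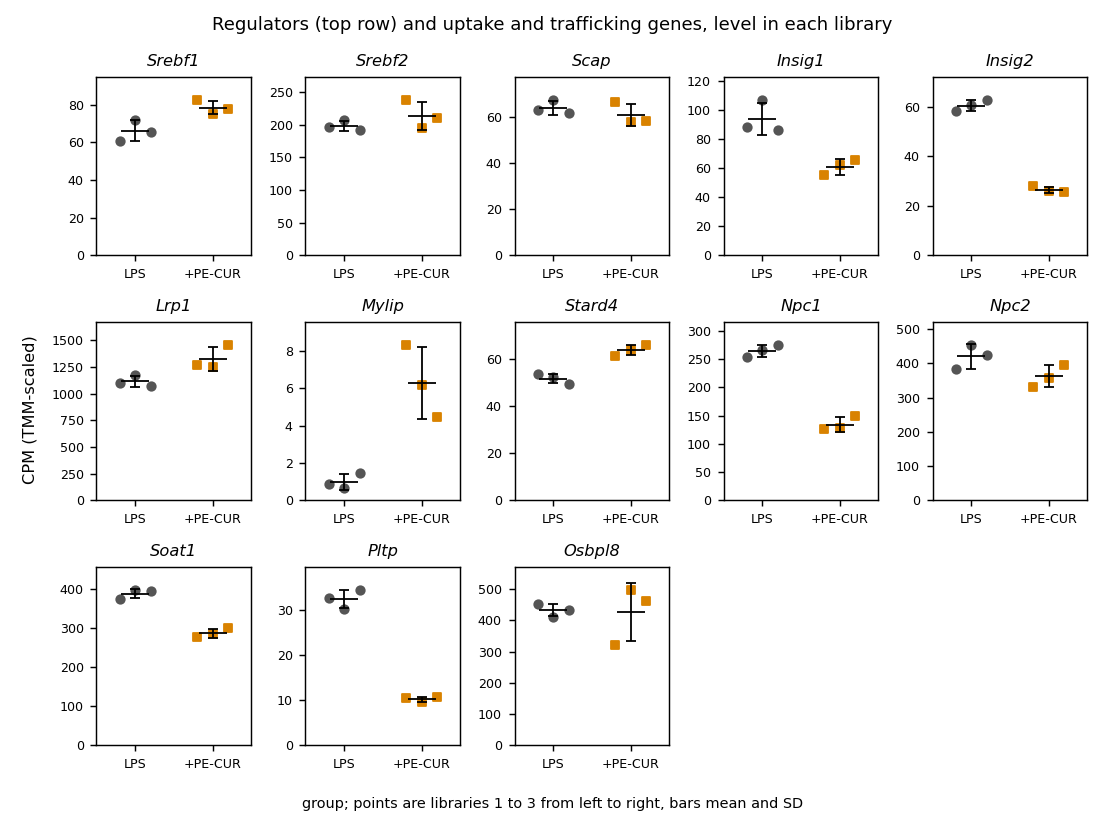
Level of the 5 regulators and 8 uptake and trafficking genes in each library (vertical axis, TMM-scaled CPM from 0; circles LPS, squares PE-CUR; bars mean and SD of 3 libraries). Insig1, Insig2, Npc1, Soat1 and Pltp are lower in every treated library, Mylip is higher in each, and Osbpl8 has a low PE-CUR library.

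By deposited FPKM the members spanned a wide range of levels. In LPS the highest were Npc2 (131 FPKM), Fdps (118), Msmo1 (97.5), Soat1 (82.5) and Lrp1 (75.3 FPKM), and the lowest were Mvk (5.23), Tm7sf2 (2.65) and Mylip (0.265 FPKM). Npc2 and Fdps overlapped in both groups, as did Sqle and Npc1 in LPS, so their order is not settled by these libraries. With PE-CUR, Fdps (113 FPKM) and Npc2 (109 FPKM) were again the highest. Acat2 moved from rank 22 to rank 11 of the 31, and Pltp from rank 14 to rank 27. Mylip held the lowest rank in both groups.

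**Figure D4:**
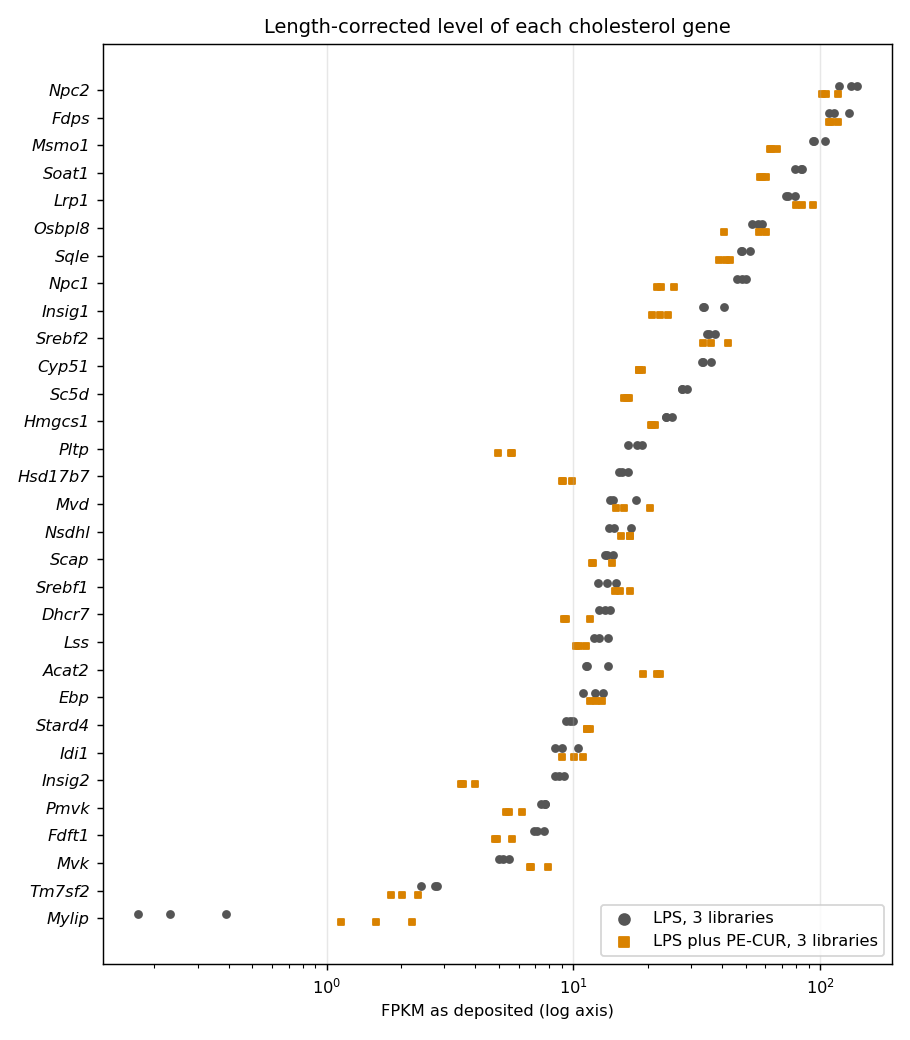
Deposited FPKM of each member (horizontal log axis) in the 3 LPS libraries (circles) and the 3 PE-CUR libraries (squares), ordered by the LPS mean. Levels run from 0.265 FPKM for Mylip to 131 FPKM for Npc2 in LPS, and Pltp, Insig2 and Npc1 show wide gaps to the left, Acat2 and Mylip to the right.

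Further genes of the pathway were taken from 2 lists. Of 29 other genes of synthesis and its control, 15 rose (51.7%), 8 fell (27.6%) and 6 did not pass, beside 30.8% higher and 32.7% lower among all genes tested; the median log2 fold change was 0.21. Acat1, the mitochondrial thiolase, rose from a mean of 87.6 to 187 CPM (edgeR log2 fold change 1.09 with SE 0.066, adjusted p = 2.57e-07). Lbr, the nuclear envelope protein that also reduces C14 sterols, rose from a mean of 96.3 to 182 CPM (edgeR log2 fold change 0.92 with SE 0.064, adjusted p = 6.22e-07). By FPKM, Lbr stood at 26.0 ± 1.61 FPKM in LPS and 47.3 ± 2.05 FPKM with PE-CUR and Tm7sf2, which carries out the same step, at 2.65 ± 0.210 FPKM in LPS and 2.06 ± 0.266 FPKM with PE-CUR. Sp1 rose from a mean of 129 to 179 CPM (edgeR adjusted p = 2.22e-05) and Mbtps2, the protease that releases SREBP in the Golgi membrane, from a mean of 86.8 to 123 CPM (edgeR adjusted p = 2.46e-05).

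Among the falls of this list, Por, the reductase that feeds electrons to CYP51 and squalene epoxidase, went from a mean of 451 to 289 CPM (edgeR log2 fold change -0.64 with SE 0.059, adjusted p = 4.48e-06). Erlin1 and Erlin2, endoplasmic reticulum proteins that bind SCAP and INSIG, fell from a mean of 141 to 80.8 CPM and from a mean of 78.5 to 52.4 CPM (edgeR adjusted p = 4.80e-06 and 1.22e-05). A further 3 genes are named because of their role and after their values were seen. Nfya, Nfyb and Nfyc, the subunits of the CCAAT-binding factor, rose from a mean of 80.0 to 109.7 CPM, from a mean of 16.0 to 22.5 CPM and from a mean of 18.3 to 27.2 CPM (log2 fold changes 0.46, 0.49 and 0.58, edgeR adjusted p = 3.81e-05, 0.000803 and 0.000705).

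Of 30 other genes of uptake, export and trafficking, 26 were tested, of which 2 rose, 14 fell and 10 did not pass; the median log2 fold change was -0.27. The 61.5% called are near the 63.4% of all genes tested, but the share that rose was lower (7.69% beside 30.8%) and the share that fell higher (53.8% beside 32.7%). The rises were Lrp8, a lipoprotein receptor gene, from a mean of 50.3 to 85.4 CPM (edgeR log2 fold change 0.76 with SE 0.079, adjusted p = 9.55e-06), and Gramd1a, which moves sterols from the plasma membrane, from a mean of 51.6 to 72.3 CPM (edgeR adjusted p = 8.06e-05). The strongest falls were those of Osbpl2, an oxysterol-binding protein relative, from a mean of 123 to 52.5 CPM (edgeR log2 fold change -1.23 with SE 0.069, adjusted p = 1.86e-07), and Lpcat3, which remodels phospholipids and is an LXR target, from a mean of 105 to 43.4 CPM (edgeR log2 fold change -1.28 with SE 0.075, adjusted p = 2.17e-07). Cyp27a1, a mitochondrial sterol hydroxylase, fell from a mean of 41.5 to 18.3 CPM and Nceh1, a hydrolase of cholesterol esters, from a mean of 261 to 131 CPM (edgeR adjusted p = 1.97e-06 and 6.00e-06). The count of rises was 4 with DESeq2, without PE-CUR replicate 1 and in the fit without a filter. The count of falls was 12 in the fit without a filter and 10 to 13 with a library left out.

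Textbook targets of the 2 regulatory systems passed in both directions. Of 19 SREBP-2 targets, 15 of them members, 18 were tested, of which 3 rose (16.7%), 10 fell (55.6%) and 5 did not pass, beside 30.8% higher and 32.7% lower among all genes tested; the median log2 fold change was -0.18. Falls included Cyp51, Sc5d and Msmo1, described above. The rises were Mvk, Stard4 and Tmem97, a sterol-responsive membrane protein, from a mean of 37.5 to 57.4 CPM (edgeR log2 fold change 0.62 with SE 0.083, adjusted p = 7.20e-05). The count of rises was 5 without LPS replicate 2 and 6 in the fit without a filter. The count of falls was 7 in the fit without a filter and 7 to 8 with a library left out. Of 8 LXR targets, 3 of them members, 2 rose, 3 fell and 3 did not pass, with a median of -0.045. The 62.5% called (25.0% higher and 37.5% lower) are near the 63.4% of all genes tested (30.8% and 32.7%). The count of LXR target rises was 1 with library totals alone and on log2 FPKM, where Srebf1 did not pass. Mylip and Srebf1 rose, while Pltp, Lpcat3 and Nr1h3, the gene of LXR alpha, fell, the last from a mean of 4.43 to 2.61 CPM (edgeR log2 fold change -0.77 with SE 0.20, adjusted p = 0.00579).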

How the data were processed

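The authors deposited whole-number counts per gene symbol and FPKM values for 6 libraries, with each column named by a sample title, from which group and replicate were taken. Build mm10 and the tools HTSeq, fastp, DESeq2 and SAMtools are listed per the submitters' processing notes; for versions, aligner, annotation and strand setting nothing is given in the sources used here. The deposited FPKM equal count over length and library total in 100% of 105337 values above 0 (relative tolerance 1e-04), so they are the same measurement.

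Tests on the counts used edgeR 4.0.16 under R 4.3.3 (filterByExpr, TMM factors, robust quasi-likelihood fit, group as the only term, all 6 libraries, two-sided, Benjamini-Hochberg over all 13014 genes, threshold 0.05). SE is the log2 fold change over the root of F. Alternatives were other size factors, other filters, DESeq2 1.42.0, voom and FPKM fits with limma 3.58.1 (pseudocounts 1 and 0.1), a replicate block, each library left out, and removal of the 10 most abundant genes. Mitochondrial genes (symbols starting with mt-) were to be removed with them, but the count table held none. The fit was also run on simulated data with 200 genes changed. That is far fewer than the 8256 called here, so the run cannot speak for data with this many changes.

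Members, lists and tests were chosen with earlier results of these data known. All members are named; from other lists, up to 4 called genes per direction with the smallest p, some of which are not reported here. Gene coordinates span all RefSeq transcripts of a gene, promoters belong to single RefSeq transcripts (GRCm38.p6), and exon overlaps are GENCODE M21's.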

Additional observations from a re-analysis of the deposited data

How the results depend on the processing

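The counts of calls and the log2 fold changes of the members and of the listed genes named were recomputed under 17 alternatives; marker calls were recomputed with DESeq2 and limma-voom, and FPKM sums and ranks, motif counts and genes named for an overlap were not. Of the 22 member calls 16 held in all of them, and Hmgcs1, Sqle, Lss, Srebf1, Lrp1 and Npc2 lost theirs in at least 1. Of the 9 members not called, Ebp, Fdps and Scap were called in none. For each change below the cause was not tested. The number of regulators called higher, 1 in the fit reported, was 0 with library totals alone and in the 3 fits of log2 FPKM, 2 without a filter on low counts, and 1 to 2 when a library was left out. Synthesis enzymes called higher, 2 as reported, were 5 without a filter and 2 to 4 with a library left out. Synthesis enzymes called lower, 10 as reported, were 7 without a filter and 7 to 8 with a library left out. Other uptake, export and trafficking genes called higher, 2 as reported, were 4 without a filter, 4 with DESeq2 and 2 to 4 with a library left out. Those called lower, 14 as reported, were 12 without a filter and 10 to 13 with a library left out. The log2 fold change of Fdps was -0.0081 as reported and 0.010 with median-ratio factors, 0.048 without a filter, 0.010 with DESeq2 and 0.026 with the 10 most abundant genes removed, and ran from -0.034 to 0.12 with a library left out. That of Osbpl8 was -0.024 as reported, 0.029 without a filter, 0.010 with the same genes removed, and -0.11 to 0.17 with a library left out. With a library left out, Scap ran from -0.11 to 0.010. The counts of the arms and of the SREBP-2 and LXR lists, and the genes that are not members, were put through the same alternatives after the data had been seen. With the replicate number as a block, 7661 genes were called in place of 8256, and 21 of the 22 member calls remained, Hmgcs1 being lost (adjusted p = 0.0785); the deviations of same-numbered libraries from their group means correlated at -0.10, -0.18 and -0.048, no library correlated best with its own number, and the replicates were not taken as paired. Depth limits Mylip, at 21 to 52 counts per LPS library, and Tm7sf2, at 85 to 133 counts per library. The labels give 3 samples per group and no group without LPS.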

Other observations

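Farnesyl diphosphate also feeds branches other than sterols, and 6 genes of those branches, singled out after their values were seen, are given here. Pdss1 and Pdss2 encode the enzyme that makes the side chain of ubiquinone. Pdss1 had 7.37, 6.76 and 6.47 CPM in LPS and 12.8, 18.1 and 15.9 CPM with PE-CUR, so that every treated library was higher, and it rose 2.27-fold (edgeR log2 fold change 1.18 with SE 0.14, adjusted p = 2.52e-05). Pdss2 rose from a mean of 9.09 to 11.4 CPM (edgeR log2 fold change 0.32 with SE 0.11, adjusted p = 0.0215). The Pdss2 call ended without LPS replicate 3 (adjusted p = 0.0519), without PE-CUR replicate 3 (0.0611), with library totals alone (0.0567) and on log2 FPKM with limma (0.0651 to 0.0884). Fnta and Fntb, the subunits of protein farnesyltransferase, rose from a mean of 52.1 to 61.8 CPM and from a mean of 9.82 to 17.1 CPM (log2 fold changes 0.25 and 0.80, edgeR adjusted p = 0.00342 and 0.000182). Ggps1, which makes geranylgeranyl diphosphate, had 45.8, 42.0 and 44.8 CPM in LPS and 37.0, 43.9 and 36.2 CPM with PE-CUR (not past the threshold, adjusted p = 0.0875). Dhdds, of dolichol synthesis, had 45.1, 47.8 and 44.3 CPM in LPS and 41.8, 42.1 and 41.8 CPM with PE-CUR (not past it either, adjusted p = 0.109). Both passed as lower in 5 of 17 alternative fits, Ggps1 among them without PE-CUR replicate 2 (adjusted p = 0.0312). A difference between these branches and the sterol arm was not tested.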
